A study of Mus musculus with 33 samples.

Results

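The 9 genes described here act at the midbrain-hindbrain boundary of the vertebrate embryo, and they were chosen by name for that role, by a rule that uses no measured value, although earlier results of these data were known. They are the secreted signals Fgf8 and Wnt1, the paired-box transcription factors Pax2, Pax5 and Pax8, the engrailed homeobox factors En1 and En2, and the homeobox factors Gbx2 and Lmx1b. All 9 were found among the 37991 gene identifiers of the count files. In the embryo the boundary, or isthmus, is a signalling centre that patterns the midbrain on its anterior side and the cerebellum and anterior hindbrain on its posterior side. FGF8 is made on the hindbrain side, next to Gbx2, and WNT1 on the midbrain side, and PAX2, LMX1B and the engrailed factors take part in starting or keeping both signals. Most of these genes also work elsewhere: Fgf8 in the primitive streak, Wnt1 in the dorsal neural tube from which the neural crest leaves, Pax2 and Pax8 in the kidney and the ear, Pax5 in B lymphocytes and Gbx2 in naive pluripotent cells.

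RNA was sequenced from E14TG2a, a mouse embryonic stem cell (mESC) line, as undifferentiated mESCs, as embryoid bodies (EBs) grown for 8 days, and as EBs that received 5 µM retinoic acid (RA), a vitamin A derivative that favours neural cells, from day 4 (EBs + RA). All lines were clones selected with puromycin after transfection of a Cas9 vector. Wild-type controls were clones #1, #4 and #7, which had received the vector without a guide. Neil1 knockouts were clones #7, #9 and #11, and Neil2 knockouts were clones #1, #11 and #14, and each clone was sequenced at every stage. NEIL1 and NEIL2 are DNA glycosylases, enzymes that remove oxidised bases at the start of base excision repair. The Apex1 knockout, which lacks the endonuclease acting next in that pathway, was a single clone, #46, in technical duplicates that were summed to 1 library for testing, so that its values describe 1 clone. There were 33 libraries in all. The question was how loss of each enzyme bears on gene expression before and during EB differentiation.

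The results turn on Fgf8 and Wnt1, which switched in opposite directions when RA was given. RA acts through nuclear receptors that bind direct repeats of a short core sequence. The bases around such repeats near Wnt1 are shown as examples. The core was taken as AGGTCA, or as the common variant AGTTCA, or as either of them beginning with G, which reads GGGTCA for the former and, for the latter, GGTTCA. Any pair of these was searched on both strands within 5000 bases of the annotated start of each protein-coding gene in NCBIM37, as a repeat with a spacer of 2 bases (DR2) or of 5 bases (DR5). A DR2 and a DR5 may share a core. A DR2 was found near 11.3% and a DR5 near 3.66% of 22380 genes, and either near 14.5%. The match is in capitals, read on the strand that carries the repeat. A match describes the letters only. Not every match near a member is shown, and nothing about the direction of a response to RA can be read from those printed.
Wnt1, DR2, chr15:98616147-98616240, plus strand, 4101 bases before the gene start: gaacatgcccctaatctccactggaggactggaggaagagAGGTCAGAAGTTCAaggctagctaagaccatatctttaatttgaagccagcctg
Wnt1, DR5, chr15:98624374-98624470, minus strand, 4126 bases after the gene start: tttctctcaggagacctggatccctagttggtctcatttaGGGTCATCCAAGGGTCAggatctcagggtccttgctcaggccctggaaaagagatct
Neither match lay inside an annotated gene, and the DR5 was 146 bases beyond the annotated end of Wnt1.

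Pax2 and Fgf8 lie on the same chromosome, Pax2 (ENSMUSG00000004231) at chr19:44830539-44912758 on the plus strand and Fgf8 (ENSMUSG00000025219) at chr19:45811288-45817405 on the minus strand. Wnt1 (ENSMUSG00000022997) lies at chr15:98620288-98624268 on the plus strand. Gbx2 (ENSMUSG00000034486) and En1 (ENSMUSG00000058665) are on chromosome 1, Pax8 (ENSMUSG00000026976) and Lmx1b (ENSMUSG00000038765) on chromosome 2, Pax5 (ENSMUSG00000014030) on chromosome 4 and En2 (ENSMUSG00000039095) on chromosome 5. All are protein-coding, and each value below is summed over a whole gene, so that splice forms are not told apart.

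Libraries held 21523742 to 48350904 counts on genes, with a median of 26720028. Values are CPM, counts relative to library size, scaled by TMM. A gene was called at an edgeR FDR below 0.1 with an absolute log2 fold change above 0.5. The mESC library of Neil1 clone #11 had no counts for 345 genes of chromosome X and 7 of chromosome Y, although all remaining mESC libraries had 10 or more for each. No member lies on these chromosomes. The knockouts delete part of each gene, and whole-gene counts therefore do not check the deletion. Neil1 counted 2.51 to 31.6 CPM in Neil1 mESCs against 7.67 to 9.83 CPM in controls. In Neil1 EBs and EBs + RA it had 1.42 to 6.06 and 2.2 to 4.35 CPM, against 5.97 to 9.2 and 5.89 to 8.07 CPM. Neil2 counted 5.49 to 9.54 CPM in Neil2 mESCs, 6.74 to 18.3 CPM in EBs and 4.87 to 5.78 CPM in EBs + RA. The controls of these stages had 5.77 to 15.1, 6.64 to 10.7 and 3.32 to 4.48 CPM of Neil2. Apex1 counts were higher, not lower, in the 6 libraries labelled Apex1, at 56.0 to 85.5 CPM. The control libraries of the 3 stages had 7.69 to 17.9 CPM. For this line the paper reports genotyping PCR and a western blot for APEX1. For the Neil1 and Neil2 clones it reports genotyping PCR, a western blot for NEIL1 and qPCR of Neil2.

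In control cells the members did not appear together. Fgf8 was the most abundant member in EBs and was nearly absent from EBs + RA, where Wnt1, Pax2, Gbx2 and Lmx1b were high, and En1 and Pax5 were low at every stage. The 9 genes are therefore described singly and not as the signature of an isthmus. In EBs, Fgf8 stood at 36.4, 58.6 and 53.7 CPM in control clones #1, #4 and #7, against 0.548, 0.525 and 0.237 CPM in the mESCs of the same clones and 0.0322, 0.147 and 0.0988 CPM with RA. The EB values lay above all others, and those with RA rest on 1, 4 and 3 counts. Fgf8 rose from mESCs to EBs by a log2 fold change of 6.78 (SE 0.34, edgeR FDR 1.2e-07) and fell with RA, with a log2 fold change of −9.01 (SE 0.58, edgeR FDR 3.0e-08).

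**Figure D1:**
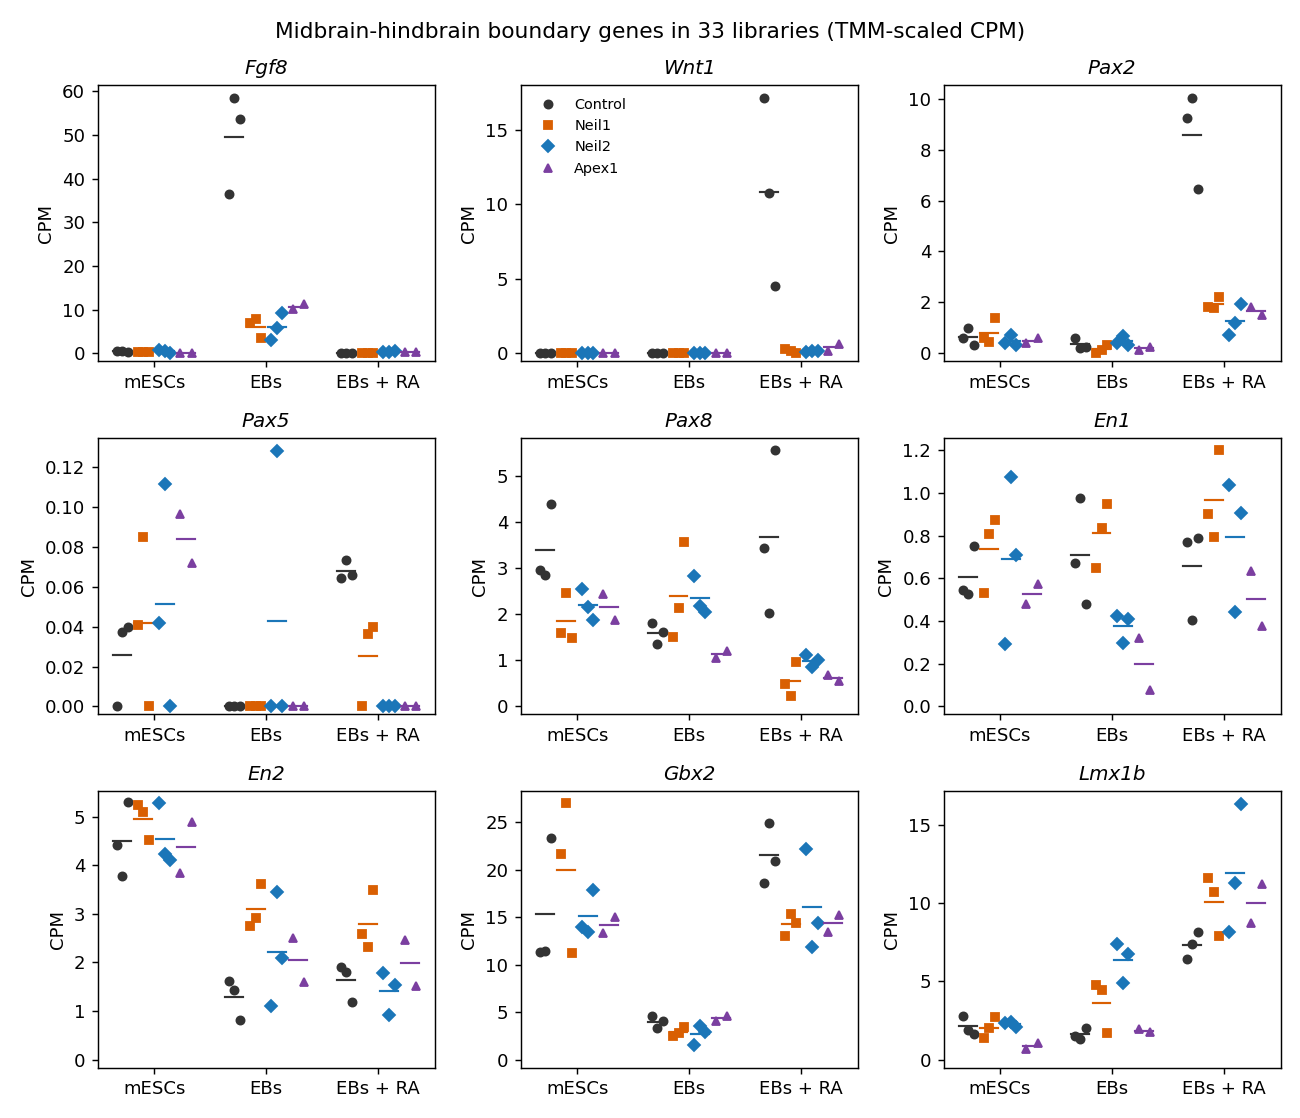
CPM (vertical axes, linear, scaled by TMM) of each member in every library at the 3 stages, with points for libraries and short lines for group means. Fgf8 is highest in control EBs, at 36.4 to 58.6 CPM, and Wnt1 in control EBs + RA, at 4.51 to 17.2 CPM. The 2 points of Apex1 are technical duplicates of 1 clone.

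Wnt1 had the opposite pattern. It had 0 counts in all 11 EB libraries, at most 1 count in any mESC library, and 17.2, 10.7 and 4.51 CPM in EBs + RA of control clones #1, #4 and #7. The 3 clones differed widely, with a mean of 10.8 ± 6.32 CPM (SD, n = 3). Against the floor of 3 counts over the 3 EB libraries, the rise with RA was at least 357-fold, and the call had an edgeR FDR of 1.2e-05. Pax2 followed the same stages from a higher base, at 0.605, 0.195 and 0.258 CPM in EBs and 9.24, 10.0 and 6.45 CPM with RA, which was a log2 fold change of 4.53 (SE 0.45, edgeR FDR 1.3e-05). Both genes were higher in every control clone with RA than in any without.

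Gbx2 and Lmx1b, whose products sit on the hindbrain side and in the roof and ventral midbrain of the embryo, were present at every stage. Gbx2 had 11.4, 11.4 and 23.3 CPM in control mESCs, 4.56, 3.31 and 4.08 CPM in EBs and 18.6, 24.9 and 20.9 CPM in EBs + RA. It fell into EBs (log2 fold change −1.96, SE 0.27, edgeR FDR 2.6e-04) and rose with RA (2.45, SE 0.27, edgeR FDR 3.3e-05), with no overlap between EBs and either other stage. Lmx1b had 1.53, 1.33 and 2.02 CPM in EBs and 6.44, 7.36 and 8.13 CPM with RA, a log2 fold change of 2.19 (SE 0.27, edgeR FDR 7.0e-05). Its change from mESCs to EBs was −0.41 (SE 0.28, edgeR FDR 0.271), which passed only without clone #7 (−0.74, edgeR FDR 0.0318).

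Pax8 was low, with 2.85 to 4.39 CPM in control mESCs, 1.36 to 1.82 CPM in EBs and 2.02 to 5.56 CPM with RA. It fell into EBs (log2 fold change −1.10, SE 0.36, edgeR FDR 0.0292), a call that was lost without clone #1 (edgeR FDR 0.108), and rose with RA (1.22, SE 0.35, edgeR FDR 0.0152). En2 was highest in mESCs, at 4.42, 3.79 and 5.30 CPM, and fell into EBs to 1.62, 1.44 and 0.809 CPM (−1.81, SE 0.32, edgeR FDR 0.00108). With RA it was at 1.90, 1.80 and 1.19 CPM, within the spread of EBs (0.35, SE 0.33, edgeR FDR 0.399). En1 stayed between 0.405 and 0.975 CPM in all 9 control libraries, with 11 to 31 counts each. Pax5 had 0 to 2 counts in every control library and was too low to test in any comparison. Over all 33 libraries it had at most 3 counts, or 0.128 CPM.

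In control EBs against mESCs, 1 of 8 tested members rose and 3 fell, beside 38.5% of all 16557 genes called. In EBs + RA against EBs, 5 of 8 rose and 1 fell, beside 43.1% of all genes called. Per length of exon, the order in control EBs was Fgf8 at 36.7 ± 8.62 CPM per kb (SD, n = 3) and then Gbx2 at 0.940 ± 0.148, and the next members Lmx1b, Pax8 and En2, at 0.336, 0.263 and 0.259 CPM per kb, lay within each other's spread. In EBs + RA, Gbx2 at 5.07 ± 0.755 and Wnt1 at 4.52 ± 2.64 CPM per kb did not differ beyond their spread, nor did Lmx1b at 1.51 ± 0.175 and Pax2 at 1.48 ± 0.324 CPM per kb. In mESCs, Gbx2 came first at 3.62 ± 1.62 CPM per kb and En2 next at 0.904 ± 0.152. Both stage comparisons use the same control EBs.

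**Figure D2:**
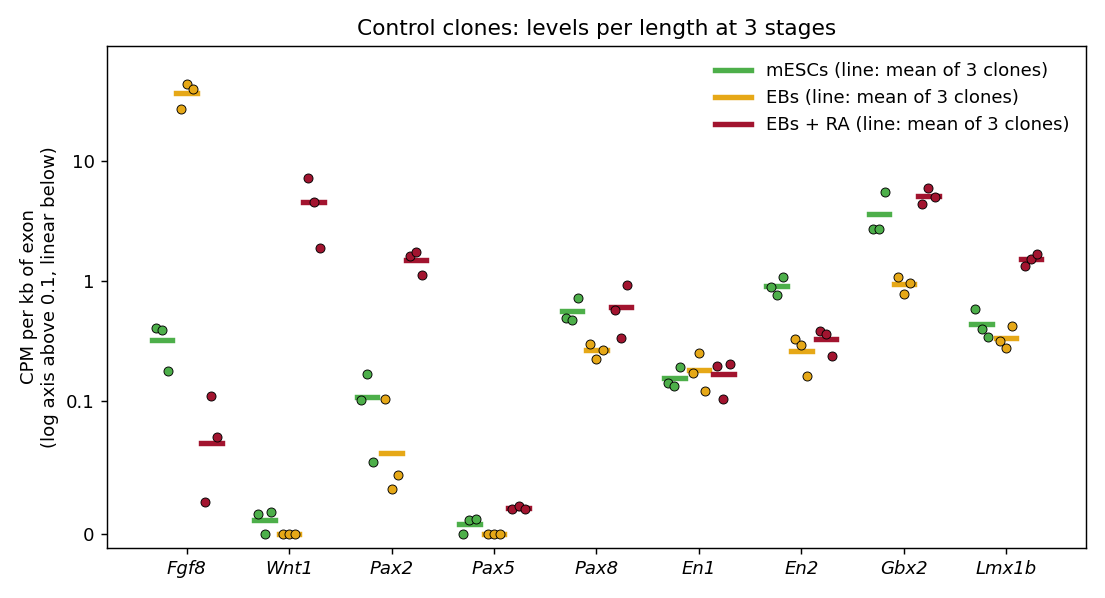
Level per length (CPM per kb of exon, log axis above 0.1 and linear below) of each member in the 3 control clones at 3 stages, with points for clones and lines for means. Fgf8 reaches 36.7 CPM per kb in EBs and Wnt1 4.52 CPM per kb in EBs + RA, while En1 lies between 0.155 and 0.180 CPM per kb at each stage.

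In EBs without RA, loss of Neil1 or Neil2 went with much less Fgf8 and more Lmx1b. Fgf8, the ligand that also drives cells through the primitive streak, was at 6.91, 7.85 and 3.42 CPM in the Neil1 knockouts #7, #9 and #11 and at 3.09, 5.89 and 9.17 CPM in the Neil2 knockouts #1, #11 and #14, against 36.4, 58.6 and 53.7 CPM in controls. Every mutant clone lay far under every control, and the genotypes were compared with the same 3 controls. The log2 fold change was −3.05 in both, with an SE of 0.31 and an edgeR FDR of 4.0e-04 for Neil1 and an SE of 0.35 and an edgeR FDR of 0.00172 for Neil2. Leaving out 1 clone at a time gave −3.28 to −2.75 for Neil1 and −3.47 to −2.74 for Neil2. The duplicates labelled Apex1 had 10.1 and 11.3 CPM, also under every control (−2.19, SE 0.51, edgeR FDR 0.0599), and this call was lost without control clone #4 (edgeR FDR 0.126) or without the filter on low counts (edgeR FDR 0.225). In bulk RNA, fewer cells of a type and less RNA per cell cannot be told apart.

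The fall in Fgf8 went together with markers of the primitive streak, the transient tissue from which mesoderm and endoderm form. All 5 of T, Mixl1, Eomes, Mesp1 and Gsc were lower in Neil1 and in Neil2 EBs, with median log2 fold changes of −4.24 and −4.78 against −0.00 and 0.02 over all genes. Their summed level was 231 to 352 CPM in control EBs, 25.2 to 47.8 CPM in Neil1, 32.6 to 41.6 CPM in Neil2 and 110 to 130 CPM in the libraries labelled Apex1, where 2 of 5 were called lower. Markers of pluripotent cells moved the other way, with 5 of 6 higher in Neil1 and 4 of 6 in Neil2 EBs and sums of 1410 to 1460 CPM in controls, 2110 to 2450 CPM in Neil1 lines and 1590 to 2500 CPM in Neil2. The shares of all genes called were 23.5% in Neil1, 16.3% in Neil2 and 8.89% with the Apex1 label. The part of the streak and pluripotent cells in the Fgf8 values was not tested.

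Lmx1b, a LIM-homeobox factor needed for Wnt1 and Fgf8 at the isthmus, had 7.36, 4.91 and 6.75 CPM in the Neil2 EBs, all above the controls at 1.53, 1.33 and 2.02 CPM (log2 fold change 1.96, SE 0.27, edgeR FDR 0.0032). In Neil1 EBs it had 4.76 and 4.42 CPM in clones #7 and #9, and 1.71 CPM in clone #11, within the control range. The Neil1 call (1.14, SE 0.37, edgeR FDR 0.0439) rested on these clones and was lost without Neil1 clone #7 or #9 (edgeR FDR 0.149 and 0.138) and without control clone #1 or #4 (0.125 and 0.137). En2, which has a part in cerebellar patterning, was higher in Neil1 EBs at 2.75, 2.92 and 3.61 CPM against 1.62, 1.44 and 0.809 CPM (1.24, SE 0.29, edgeR FDR 0.00903), a call that held in all 6 fits without 1 clone. In Neil2 EBs it had 1.11, 3.46 and 2.1 CPM, which overlapped the controls (0.77, SE 0.45, edgeR FDR 0.321), and the difference passed without Neil2 clone #1 (1.08, edgeR FDR 0.0468).

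The remaining members did not pass in EBs. Gbx2 had 2.45 to 3.46 CPM in Neil1, 1.53 to 3.5 CPM in Neil2 and 3.31 to 4.56 CPM in control EBs, and the Neil1 difference (log2 fold change −0.46, edgeR FDR 0.154) passed without Neil1 clone #11 (−0.61, edgeR FDR 0.0831). Pax8 had 1.5 to 3.57 CPM in Neil1 EBs (0.58, edgeR FDR 0.208), which passed without Neil1 clone #7 (0.81, edgeR FDR 0.0974), and 2.05 to 2.83 CPM in Neil2 EBs, above the controls at 1.36 to 1.82 CPM (0.56, edgeR FDR 0.231). The libraries labelled Apex1 had 1.05 and 1.21 CPM, below them (−0.48, edgeR FDR 0.619). En1 had 0.423, 0.299 and 0.410 CPM in Neil2 EBs and 0.323 and 0.0756 CPM in those labelled Apex1, all under the controls at 0.478 to 0.975 CPM. Those differences, −0.88 (edgeR FDR 0.199) and −1.81 (edgeR FDR 0.106), missed the limit. The one labelled Apex1 passed without control clone #7 (edgeR FDR 0.0981) or on the second duplicate alone (−3.14, edgeR FDR 0.0456). Pax2 had 0 to 9 counts in Neil1 EBs and was tested only in the other genotypes. Of the members, 2 of 6 tested members were called higher and 1 lower in Neil1 EBs, where 23.5% of all genes were called, 1 of 7 higher and 1 lower in Neil2 EBs, where 16.3% were, and 1 of 7 lower with the Apex1 label, where 8.89% were.

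**Figure D3:**
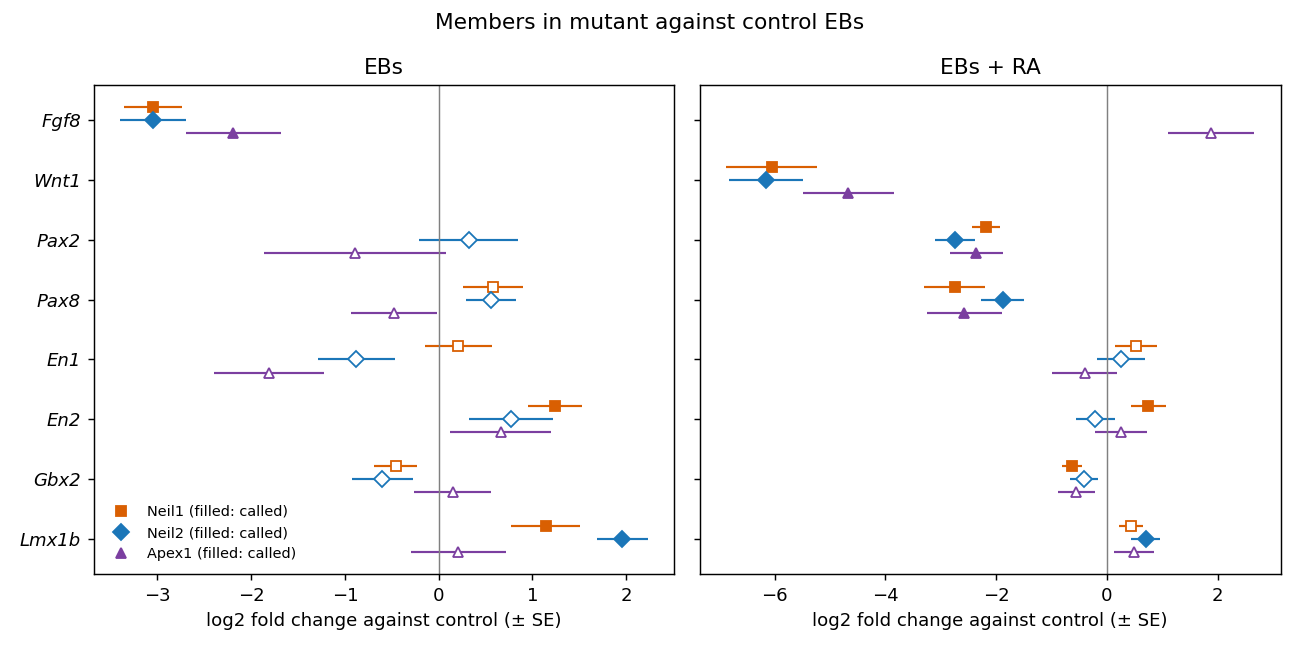
Log2 fold change against control (horizontal axis, with bars of 1 standard error) of the tested members in EBs and in EBs + RA, with filled symbols for calls. Fgf8 lies between −3.05 and −2.19 in EBs, and Wnt1 between −6.15 and −4.67 in EBs + RA. The horizontal scales of the panels differ, and the 3 genotypes share their controls.

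With RA, Wnt1, Pax2 and Pax8 were low in the mutants, while Gbx2 and Lmx1b, which also rose in control cells, were not far from the control level. Wnt1 was at 0.280, 0.180 and 0 CPM in the Neil1 knockouts #7, #9 and #11 and at 0.111, 0.159 and 0.174 CPM in the Neil2 knockouts #1, #11 and #14, at 0 to 9 counts per library, against 137 to 533 counts in the controls. No mutant library came near the lowest control, at 4.51 CPM. The log2 fold change was −6.05 (SE 0.82, edgeR FDR 0.0012) for Neil1 and −6.15 (SE 0.67, edgeR FDR 4.8e-04) for Neil2, and with 1 clone left out it lay from −6.80 to −5.55 and from −6.53 to −5.64. The duplicates labelled Apex1 had 0.127 and 0.651 CPM (−4.67, SE 0.82, edgeR FDR 0.0321), and this call was lost without control clone #1 (edgeR FDR 0.103), the clone with the most Wnt1.

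Pax2, among the first genes switched on at the boundary, had 1.80, 1.77 and 2.20 CPM in Neil1 and 0.704, 1.21 and 1.95 CPM in Neil2 EBs + RA, against 9.24, 10.0 and 6.45 CPM in controls. All mutant clones lay below all controls, with log2 fold changes of −2.18 (SE 0.26, edgeR FDR 9.8e-04) and −2.74 (SE 0.36, edgeR FDR 0.00161) that passed in every fit without 1 clone. The values remained above those of EBs without RA, which were at most 0.342 CPM in Neil1 and 0.683 CPM in Neil2. The duplicates labelled Apex1 had 1.82 and 1.51 CPM (−2.36, SE 0.48, edgeR FDR 0.0403), a call lost without control clone #1 or #4 (edgeR FDR 0.124 and 0.117).

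Pax8 is a paralog of Pax2 that shares its work in kidney and ear. It had 0.497, 0.216 and 0.961 CPM in Neil1, 1.11, 0.857 and 1.01 CPM in Neil2 and 0.677 and 0.548 CPM in the libraries labelled Apex1, against 3.44, 2.02 and 5.56 CPM in control EBs + RA. The mutants lay below all controls, by log2 fold changes of −2.75 (SE 0.55, edgeR FDR 0.00764) in Neil1 and −1.88 (SE 0.39, edgeR FDR 0.0087) in Neil2. That of the Apex1 label, −2.57 (SE 0.68, edgeR FDR 0.0932), was lost in each of 5 fits without 1 library, at edgeR FDR 0.101 to 0.202. Pax5, the third of these paired-box genes, had 2 counts in each control library with RA and 0 or 1 in every mutant library, and was not tested.

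Gbx2 and Lmx1b, which rose with RA in control cells, moved little in the mutants. Gbx2 had 13.0, 15.3 and 14.4 CPM in Neil1 EBs + RA, under the controls at 18.6, 24.9 and 20.9 CPM (log2 fold change −0.62, SE 0.18, edgeR FDR 0.0279), which was lost without control clone #4 (edgeR FDR 0.122). In Neil2 it had 22.1, 11.8 and 14.3 CPM and overlapped the controls (−0.41, edgeR FDR 0.235), and passed without Neil2 clone #1 (−0.73, edgeR FDR 0.0187). Lmx1b had 8.15, 11.3 and 16.4 CPM in Neil2, with the lowest clone level with the highest control, which had 8.13 CPM (0.70, SE 0.26, edgeR FDR 0.0688), a call lost without control clone #1 or #4 or Neil2 clone #11 or #14, at edgeR FDR 0.118 to 0.263. In Neil1 it had 11.6, 10.7 and 7.89 CPM (0.44, SE 0.22, edgeR FDR 0.151), and passed without clone #11 (0.58, edgeR FDR 0.0537). With the Apex1 label Gbx2 had 13.4 and 15.2 CPM (−0.55, edgeR FDR 0.424) and Lmx1b 8.76 and 11.2 CPM (0.49, edgeR FDR 0.509).

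Of the engrailed genes, En2 had 2.58, 2.31 and 3.48 CPM in Neil1 EBs + RA against 1.90, 1.80 and 1.19 CPM in controls (log2 fold change 0.75, SE 0.32, edgeR FDR 0.095), and the call was lost in each of 6 fits without 1 clone and with the replicate number as a block (edgeR FDR 0.142). In Neil2 it was −0.21 (SE 0.35, edgeR FDR 0.673). En1 had 0.794 to 1.2 CPM in Neil1 (0.52, edgeR FDR 0.296) and 0.444 to 1.04 CPM in Neil2 (0.26, edgeR FDR 0.667). Fgf8 had at most 3 counts in each Neil1 library and was not tested there, 8 to 17 counts in each Neil2 library, where it was not tested either, and 8 and 10 in those labelled Apex1 (1.88, SE 0.78, edgeR FDR 0.193). Of the tested members, 1 of 7 was called higher and 4 lower in Neil1, beside 41.1% of all genes called, 1 of 7 higher and 3 lower in Neil2, beside 34.9%, and 3 of 8 lower with the Apex1 label, beside 7.21%.

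In undifferentiated mESCs no member was called by edgeR in any genotype, with 6 members tested in Neil1 and 7 each in Neil2 and with the Apex1 label. At an unadjusted edgeR p below 0.05 there was 1 member in each genotype, Pax8 in Neil1 (log2 fold change −0.89, SE 0.32, edgeR FDR 0.252), Pax8 in Neil2 (−0.66, SE 0.28, edgeR FDR 0.306) and Lmx1b with the Apex1 label (−1.29, SE 0.45, edgeR FDR 0.192). Over all genes, such a p was found for 2387 of 15569 in Neil1, 2361 of 15615 in Neil2 and 3066 of 16993 with the Apex1 label. Pax8 had 1.49 to 2.46 CPM in Neil1 and 1.89 to 2.56 CPM in Neil2 mESCs, under the 2.85 to 4.39 CPM of the controls. Lmx1b had 0.674 and 1.08 CPM with the Apex1 label against 1.66 to 2.81 CPM, and DESeq2 called it (FDR 0.0723). DESeq2 called 0 members in Neil1 and in Neil2 mESCs. All genes were called at 1.82% in Neil1, 1.83% in Neil2 and 1.98% with the Apex1 label.

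Whether the effect of a knockout differed between EBs and EBs + RA was tested by an interaction term over both stages. Pax8 was called lower in the mutants with RA and not without, and the effect differed by −3.30 (SE 0.67, edgeR FDR 0.00472) in Neil1 and −2.46 (SE 0.48, edgeR FDR 0.00643) in Neil2 on the log2 scale. The effect on Fgf8, a fall without RA, differed by 3.10 (SE 0.87, edgeR FDR 0.0278) and 5.08 (SE 0.85, edgeR FDR 0.00105). With RA, Fgf8 had only 8 counts over the control group, 8 over Neil1 and 34 over Neil2. A fall from so low a control level could not be seen, and the Fgf8 terms give no size for an effect with RA. The effect on Pax2 differed by −3.06 (SE 0.66, edgeR FDR 0.0104) in Neil2, while in Neil1 the difference of −1.01 (SE 0.81, edgeR FDR 0.395) did not pass, with 0 to 9 counts in the Neil1 EBs. The rise in Lmx1b in Neil2 was smaller with RA (−1.27, SE 0.38, edgeR FDR 0.0509), and this call was lost without control clone #1 or #4 or Neil2 clone #1, at edgeR FDR 0.171, 0.226 and 0.109. For Wnt1 the term could not be estimated by edgeR, since all EBs held 0 counts. DESeq2 called it in both (−6.65, FDR 0.0519 in Neil1, and −6.57, FDR 0.00509 in Neil2), but these fitted values rest on stages at 0 and give no size. Of 8 members tested, Wnt1 among them, 1 difference was higher and 1 lower for Neil1, beside 29.6% of all genes called, and 1 higher and 3 lower for Neil2, beside 15.0%.

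Fgf8 signals through FGF receptors and switches on its own feedback inhibitors and ETS factors. In EBs, where Fgf8 was low in the mutants, 2 of the 14 genes of this pathway were higher and 2 lower in Neil1 and 1 was lower in Neil2. The shares of all genes called were 23.5% and 16.3%. Il17rd, an inhibitor of FGF signalling also called Sef, was at 126 ± 6.94 CPM in control EBs and at 61.3 ± 6.32 CPM in Neil1 and 57.8 ± 6.24 CPM in Neil2 (log2 fold changes −1.04, edgeR FDR 3.5e-05, and −1.12, edgeR FDR 0.00112; SD, n = 3). Spry4, a further inhibitor, fell in Neil1 from 43.2 ± 2.52 to 29.5 ± 3.13 CPM (−0.56, edgeR FDR 0.00386), which held in 5 of 6 fits without 1 clone. With RA, where Fgf8 was near 0 in all genotypes, 8 of 14 were lower in Neil1 and 7 in Neil2. The shares of all genes called were 41.1% and 34.9%. The ligand Fgf15 was at 7.48 ± 5.65 CPM in controls and 0.481 ± 0.0894 in Neil1 (−3.97, edgeR FDR 0.00514), and the ETS factor Etv1 at 16.9 ± 4.05 and 2.42 ± 0.959 CPM (−2.82, edgeR FDR 8.4e-04). The inhibitor Spry1 was at 53.7 ± 12.2 CPM in controls, 12.6 ± 2.66 CPM in Neil1 and 15.9 ± 3.75 CPM in Neil2. The medians over the 14 genes were −0.64 in Neil1 and −0.55 in Neil2, against 0.00 over all genes. With the Apex1 label edgeR called none of the 14 lower with RA, although Fgf15 was at 1.05 CPM, Etv1 at 7.76 CPM and Fgfr2 at 54.2 CPM, against 97.2 CPM for Fgfr2 in controls. Of the 14, 7 had an unadjusted edgeR p below 0.05, as did 3350 of all 17634 genes, and DESeq2 called 5 in either direction. By edgeR, Etv5 and Il17rd were higher by 1.78 and 1.09 (edgeR FDR 0.0606 and 0.0308), calls that held in 3 and 4 of 5 fits without 1 library.

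In control cells RA lowered 7 of these 14 genes and raised 3, beside 43.1% of all genes called. The largest falls among them were in Fgf17, a ligand of the Fgf8 subfamily, from 8.45 ± 3.32 to 0.283 ± 0.134 CPM (log2 fold change −4.85, edgeR FDR 2.6e-06), in Spry4 from 43.2 ± 2.52 to 1.86 ± 0.329 CPM (−4.51, edgeR FDR 8.3e-08) and in Etv5 from 430 ± 39.5 to 21.5 ± 1.2 CPM (−4.29, edgeR FDR 4.0e-09). From mESCs to EBs, 5 of the 14 rose and 5 fell, beside 38.5% of all genes called.

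The partners of WNT1 and the genes that report WNT activity were mostly lower in mutant EBs. In EBs, 8 of 9 tested were lower in Neil1, 7 of 9 in Neil2 and 7 of 11 with the Apex1 label, with medians of −2.16, −2.05 and −1.70. The shares of all genes called were 23.5%, 16.3% and 8.89%. Wnt1 itself had 0 counts at this stage. Wnt5a, a ligand of posterior and mesodermal tissue, was at 84.2 ± 30.1 CPM in control EBs, 1.90 ± 0.527 in Neil1 and 1.21 ± 0.396 in Neil2 (−5.46, edgeR FDR 3.2e-05, and −6.15, edgeR FDR 6.7e-05). Sp5, a direct target of WNT signalling, was at 21.2 ± 5.60, 1.31 ± 0.351 and 1.43 ± 1.01 CPM. Msx1, a homeobox gene of dorsal neural and mesodermal cells, was at 98.9 ± 30.1, 3.27 ± 0.712 and 3.40 ± 0.699 CPM. With RA, where Wnt1 was low in the mutants, 5 of 10 tested were lower and 1 higher in both Neil1 and Neil2. The shares of all genes called were 41.1% and 34.9%, and 7.21% with the Apex1 label. The feedback inhibitor Nkd1 was at 37.7 ± 4.85 CPM in controls, 5.34 ± 0.338 in Neil1 (−2.84, edgeR FDR 8.6e-05) and 7.85 ± 1.76 in Neil2 (−2.27, edgeR FDR 3.7e-04), and Lef1, a nuclear partner of beta-catenin, at 13.8 ± 4.02, 3.18 ± 1.36 and 3.04 ± 0.300 CPM. With the Apex1 label edgeR called 1 of 11 lower, Nkd1 (−0.99, edgeR FDR 0.0921), which held in 2 of 5 fits without 1 library, and DESeq2 called 2.

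Genes that place the boundary were of 2 kinds in control cells. OTX2 marks the forebrain and midbrain and is opposed by GBX2. In control cells Otx2 fell with RA from 54.3 ± 4.94 to 0.304 ± 0.0154 CPM (log2 fold change −7.43, edgeR FDR 4.0e-09). It already had 27.6 CPM in undifferentiated control mESCs, so that its level here does not mark brain cells alone. Hoxa2 of the hindbrain and Meis1, a HOX cofactor, rose from 1.07 ± 0.0466 to 51.0 ± 12.4 CPM (5.61, edgeR FDR 4.0e-08) and from 3.37 ± 0.827 to 146 ± 5.74 CPM (5.46, edgeR FDR 5.0e-09). Of 13 tested, 7 rose and 3 fell with RA, beside 43.1% of all genes called. Otx2 and Fgf8 were high at the same stage, and Gbx2 and Wnt1 were high with the hindbrain genes. In mutant EBs + RA, 5 of 13 of the list were lower and 2 higher in Neil1 and 7 lower and 3 higher in Neil2. The shares of all genes called were 41.1% and 34.9%. Sp8, a zinc-finger factor that acts with FGF8 at the boundary, was at 10.2 ± 5.75 CPM in controls, 0.893 ± 0.588 in Neil1 and 0.825 ± 0.227 in Neil2 (−3.51, edgeR FDR 0.00513, and −3.62, edgeR FDR 0.00226). Otx1 was higher at 1.38 ± 0.519 and 1.33 ± 0.464 CPM against 0.289 ± 0.101 CPM. With the Apex1 label edgeR called 0 of 14, beside 7.21% of all genes, and DESeq2 called 3. An unadjusted edgeR p below 0.05 was found for 6 of the 14 and for 3350 of all 17634 genes. In EBs, 6 of 11 were lower and 2 higher in Neil1, and 5 lower and 1 higher in Neil2, beside 23.5% and 16.3% of all genes called. Otx2 was higher with the Apex1 label, at 102 against 54.3 ± 4.94 CPM (0.92, edgeR FDR 0.00782). Its level was also above the control mean in Neil1 and Neil2 EBs, with means of 118 and 119 CPM.

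Markers of neurons that form around the boundary, the midbrain dopamine neurons and the serotonin and noradrenaline neurons of the anterior hindbrain, were unevenly present. Dbh, which makes noradrenaline, had at most 3 counts over the group in the EBs of each mutant, and Pitx3, a factor of dopamine neurons, in control EBs + RA. In EBs + RA, 2 of 7 tested genes were higher in Neil1, Foxa2 (47.2 ± 26.1 against 15.3 ± 2.34 CPM, log2 fold change 1.61, edgeR FDR 0.0107) and Gata2 (98.8 ± 43.3 against 49.8 ± 5.92 CPM, 0.97, edgeR FDR 0.0292). Both are also expressed outside the brain. In Neil2, 1 of 7 was lower, Nr4a2 (0.945 ± 0.146 against 2.17 ± 0.972 CPM, −1.20, edgeR FDR 0.0561), and this passed in 1 of 6 fits without a clone. With the Apex1 label 1 of 8 tested was called. These counts stand beside 41.1% of all genes called in Neil1, 34.9% in Neil2 and 7.21% with the Apex1 label.

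**Figure D4:**
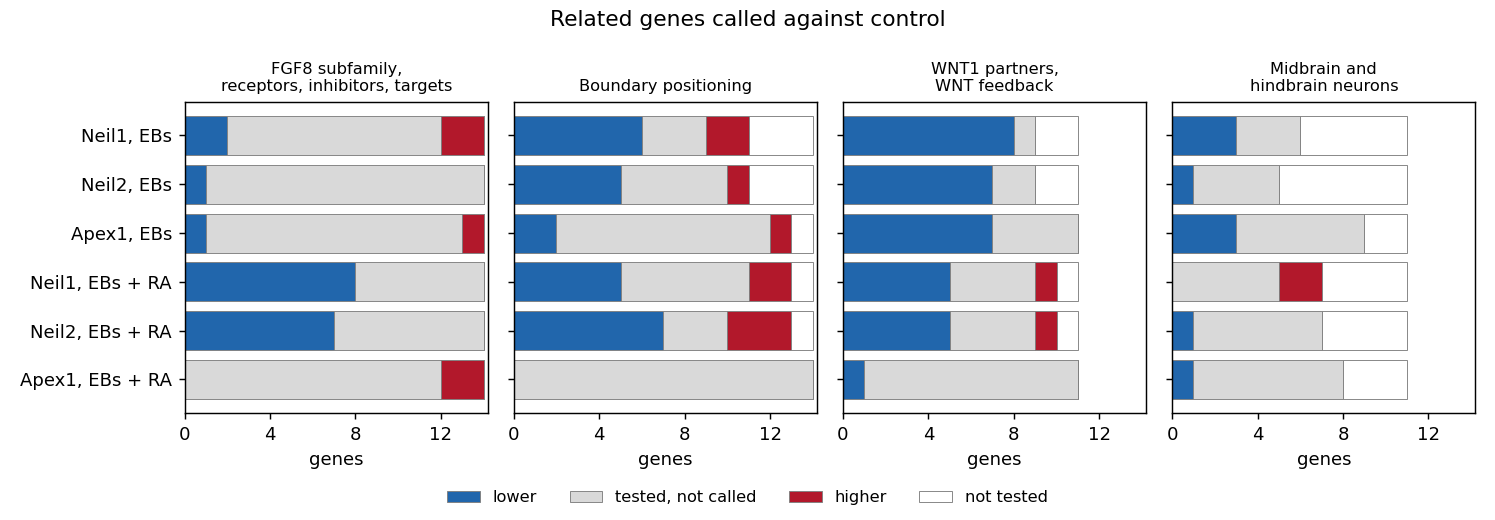
Number of genes (horizontal axes) of 4 groups related to the members that were called lower, called higher, tested and not called, or not tested in each mutant against control. The WNT group has 7 or 8 lower genes in each genotype in EBs, and the FGF group 8 and 7 in Neil1 and Neil2 EBs + RA. Over all genes 23.5%, 16.3% and 8.89% were called in Neil1, Neil2 and Apex1 EBs, and 41.1%, 34.9% and 7.21% with RA.

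Other cells in which members are at work also moved with them. With RA, 4 of 6 genes of intermediate mesoderm and kidney precursors, where Pax2 and Pax8 act, were lower and 1 higher in Neil1 and in Neil2, and the summed level was 169 to 193 CPM in controls, 14.1 to 25.3 CPM in Neil1, 24.1 to 50.9 CPM in Neil2 and 71.5 to 77.1 CPM with the Apex1 label. In controls with RA, Wt1 at 119 CPM, Lhx1 at 29.4 CPM, Emx2 at 12.0 CPM and Osr1 at 9.93 CPM made up most of it. Markers of neural progenitors, of which 4 of 5 were analysed here, summed to 209 to 370 CPM in controls, 33.1 to 78.0 CPM in Neil1, 54.0 to 100 CPM in Neil2 and 150 to 153 CPM with the Apex1 label, with 4, 3 and 3 of the 4 called lower. The pluripotent markers were higher in 6 of 6 genes in Neil1 and in Neil2, with sums of 114 to 188 CPM in controls against 346 to 430 and 248 to 598 CPM. In the libraries labelled Apex1, 5 of 6 were higher and the sum was 628 to 760 CPM. The shares of all genes called with RA were 41.1% in Neil1, 34.9% in Neil2 and 7.21% with the Apex1 label. The part of these cell types in the values of Pax2, Pax8 and Wnt1 was not tested.

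The other marker groups moved less evenly. All genes were called at 23.5% and 16.3% in Neil1 and Neil2 EBs and at 41.1% and 34.9% in their EBs + RA. Roof plate markers, cells that make Wnt1 and Lmx1b in the dorsal midline, summed to 45.5 to 98.9 CPM in control EBs + RA, against 27.1 to 38.3 CPM in the Neil1 and 29.7 to 38.3 CPM in the Neil2 lines. Msx1 made up 62.2 CPM of the control mean, and Gdf7 had 3 counts or fewer over the control group. In both mutants 1 of 4 tested was lower, beside 2 higher in Neil1 and 1 in Neil2. Markers of spinal interneurons, which can hold Pax2 and Lmx1b, summed to at most 8.20 CPM in any library with RA, with 2 of 4 tested lower in Neil1 and 3 lower and 1 higher in Neil2. Those of the ear, where Pax2 and Pax8 act, summed to 13.6 to 23.8 CPM in controls with RA, 7.61 to 13.0 CPM in Neil1 and 14.7 to 23.0 CPM in Neil2. Paraxial mesoderm, where Fgf8 is made in the tail, summed to 14.3 to 15.1 CPM in control EBs, at 1 lower and 1 higher of 3 tested in Neil2 EBs and 2 lower and 1 higher in Neil1. With RA the sums of all mutants lay below the 35.6 to 38.7 CPM of controls. They were 6.81 to 9.70 CPM in Neil1, 9.9 to 16.7 CPM in Neil2 and 28.6 to 28.9 CPM with the Apex1 label. Meox1 alone made up 33.4 CPM of the control mean with RA. Markers of B lymphocytes, the blood cells that use Pax5, summed to at most 12.6 CPM in any library, and Blk was at 3 counts or fewer over the group in 8 of the 12 groups.

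Genes with the pattern most like each member were sought among 15703 genes over the 33 libraries, by Pearson's r of log2 CPM. These libraries fall into stages and genotypes, so that r describes that grouping and not a relation within it. Nearest to Fgf8 were Cfc1 (r = 0.93), a NODAL co-receptor, and Cer1 (0.93), a secreted NODAL and WNT inhibitor, both genes of the gastrulating embryo. Near to Wnt1 was Erbb4 (0.94), a neuregulin receptor, which had 2.01 CPM in control EBs + RA and 0.0896 CPM in Neil1. Nearest to Pax2 were Rhbdl3 (0.93) and Gprin1 (0.91). Nearest to Gbx2 were Madd (0.90) and Baz1a (0.86), to Lmx1b Shkbp1 and C030046I01Rik (0.90 each), to En2 Slc27a5 (0.86) and Sarm1 (0.85), and to Pax8 Lsm14b (0.77) and Bzw2 (0.76).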

How the data were processed

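RNA-seq libraries were made from total RNA, and reads were aligned by the authors with TopHat2 2.0.9 and Bowtie2 2.1.0 to NCBIM37. Reads per gene were counted by the authors with HTSeq 0.5.4, and these deposited raw counts were used here. Whether counting used the strand is not given in the sources used here. Reads on no gene made up 5.86 to 8.85%, and such rows were left out.

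The members and gene lists were chosen with earlier results of these data known. Counts were scaled by TMM and tested with edgeR 4.0.16 (robust quasi-likelihood, filterByExpr) over all genes passing the filter, with Benjamini-Hochberg adjustment, an FDR limit of 0.1 and an absolute log2 fold change limit of 0.5. Each genotype was compared with control clones at each stage. For the single Apex1 clone, the spread was taken from the other groups in the fit. Replicates were clones derived from 1 cell line. From each related list, up to 3 called genes per comparison with the largest fold change and at least 1 CPM in a group were named, and 2 genes per member by likeness. A few items that these rules name are not reported here. Alternatives were DESeq2 1.42.0, RLE scaling, no filter, other sample sets, a replicate block and leaving out each library. The scripts were tested on simulated data.

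Clones link EBs and EBs + RA of a genotype, and their deviations from group means correlated at 0.28 to 0.36 in control clones. Between genotypes the numbers tracked each other in every pair only for Neil1 EBs + RA (0.14 to 0.21). Among 30 replicate pairs the chi-square per degree of freedom was 5.58 to 126.6, so that no pair agreed within sampling noise.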

Additional observations from a re-analysis of the deposited data

Results flagged for a closer look

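The effect of a knockout differed between EBs and EBs + RA for 4 members, by the interaction term of edgeR. Of 8 members tested, 2 were called in Neil1 and 4 in Neil2, beside 29.6% and 15.0% of all genes. For Pax8, which was called lower with RA and not without, the differences were −3.30 in Neil1 (edgeR FDR 0.00472) and −2.46 in Neil2 (edgeR FDR 0.00643) on the log2 scale, and both held in 6 of 6 fits without 1 clone. For Fgf8, called lower without RA, they were 3.10 (edgeR FDR 0.0278) and 5.08 (edgeR FDR 0.00105), with few Fgf8 counts in any library with RA. A fall of Fgf8 with RA could therefore not have been seen. For Pax2 the difference was −3.06 in Neil2 (edgeR FDR 0.0104). For Lmx1b it was −1.27 in Neil2 (edgeR FDR 0.0509), and held in 3 of 6 fits without 1 clone.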

How the results depend on the processing

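No called member changed direction under the alternatives run. With RLE scaling every one of 94 tested values kept its side of the limit, and with DESeq2 91 did and 3 more were called, Lmx1b in Apex1 mESCs and the Wnt1 interaction in Neil1 and Neil2. With all libraries kept, the number of members called moved by more than 1.5 times with the Apex1 label: in mESCs from 0 to 1 with DESeq2 and 1 with the duplicates as 2 libraries, and in EBs from 1 to 0 without the filter and 2 with the duplicates as 2 libraries. Smaller moves were from 5 to 4 in Neil1 EBs + RA without the filter, with the block or with all genotypes in 1 fit, from 3 to 2 in Neil1 EBs with the block, from 4 to 6 without the filter and 5 in 1 fit in Neil2 EBs + RA, from 6 to 7 without the filter for control EBs + RA against EBs, and by 1 more in each interaction with DESeq2. Without 1 library it ranged with that label from 0 to 1 in mESCs and from 0 to 2 both in EBs and in EBs + RA, from 3 to 5 for control EBs against mESCs and for EBs + RA of Neil1 or Neil2, from 2 to 4 in Neil1 EBs, from 2 to 3 in Neil2 EBs and the Neil1 interaction, and from 3 to 4 in the Neil2 interaction.

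Counts over all genes moved most in mESCs. In Neil1 mESCs the 283 calls became 999 with DESeq2, 503 without the filter, 0 with the replicate block and 905 with all genotypes in 1 fit. In Neil2 mESCs the 286 became 811, 479, 634 and 72. With the Apex1 label the 336 in mESCs became 1696 with DESeq2, 2988 with the duplicates as 2 libraries and 0 with control and Apex1 libraries only. The 1499 in EBs became 3235 and 2796 in the last 2 of these fits, and the 1272 in EBs + RA became 3398 with the duplicates as 2 libraries. Without 1 library the ranges were 0 to 2011, 1 to 1494 and 0 to 3005 in Neil1, Neil2 and Apex1 mESCs, 1407 to 3705 in Neil2 EBs, 582 to 1501 in Apex1 EBs, 249 to 1959 in Apex1 EBs + RA, 4197 to 7501 for control EBs against mESCs, and 2578 to 5600 and 970 to 3401 for the Neil1 and Neil2 interactions. The causes were not tested.

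With the replicate block, En2 in Neil1 EBs + RA (0.75, edgeR FDR 0.142) and Lmx1b in Neil1 EBs (1.07, edgeR FDR 0.117) lost their calls, and no other member call changed. In every genotype comparison, Neil1 EBs + RA included, clones of the genotypes shared only a replicate number. Outside Neil1 EBs + RA, same-number correlations were −0.28 to 0.16 in Neil1 mESCs and −0.20 to 0.46 in Neil2 mESCs. They were −0.16 to 0.01 in Neil1 EBs, −0.37 to −0.01 in Neil2 EBs and −0.18 to 0.28 in Neil2 EBs + RA. No paired analysis was possible for Apex1 because its libraries are duplicates of 1 clone. Depth limits Pax5 everywhere, Wnt1 outside EBs + RA and Fgf8 with RA.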
